A study of Bos taurus with 40 samples.

Results

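The genes described here are CD36 (ENSBTAG00000017866), SREBF1 (ENSBTAG00000007884), ACACA (ENSBTAG00000017567), FASN (ENSBTAG00000015980), SCD (ENSBTAG00000045728) and DGAT1 (ENSBTAG00000026356), which serve lipid uptake and synthesis. They were chosen by identifier, for their known roles and with no threshold on a measured value. All 6 were listed in each of the 40 libraries and 0 were absent, out of 13781 genes listed in at least 1 period.

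Epithelium scraped from the jejunum of 40 bulls of the Holstein Friesian breed gave 1 RNA library per bull, in 4 groups of 10. The groups labelled Restricted (RES) had their intake held down through Period 1, which lasted 125 days, to a target gain of 0.6 kg per day. In the 55 days of Period 2 this limit was lifted. No limit applied at any time to the groups labelled Control (ADLIB). All 4 groups received the same ration of 70% concentrate and 30% grass silage, and different animals were slaughtered at the end of each period. The sample labels give no age, and part of the deposited description counts the animals differently and mentions muscle, so the label of each sample was followed. The files give identifiers without names, and so the tissue could not be checked against its defining markers.

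Long-chain fatty acids reach the jejunal enterocyte from the gut lumen and from the blood, and are re-esterified to triacylglycerol for export in chylomicrons. The cell can also build fatty acids from acetyl-CoA. CD36 is a membrane protein that takes up long-chain fatty acids. SREBF1 encodes a membrane-bound transcription factor that raises transcription of fatty acid synthesis genes once it has been cleaved. Acetyl-CoA carboxylase, from ACACA, makes the malonyl-CoA with which fatty acid synthase, from FASN, builds palmitate. Stearoyl-CoA desaturase, from SCD, places a double bond in the product. DGAT1 catalyses the last step of triacylglycerol synthesis. In ruminants, adipose tissue and the lactating mammary gland are the tissues best known for making fatty acids.

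Between 4431390 and 8295900 reads per library fell on listed genes, with a median of 6923443. Values are CPM, the reads of a gene per 1000000 reads of its library after scaling by the trimmed mean of M-values (TMM), and differences are on the log2(CPM + 1) scale. Most libraries lay close to the median profile of their period, but RES Period 2 animal 1 had 585 listed genes at 0 reads and a correlation of 0.815 with that profile. RES Period 1 animal 6 had a correlation of 0.883 and RES Period 2 animal 2 had 0.918. These 3 animals hold several of the extreme values below, and estimates that moved most without them are given both ways.

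At the end of restriction none of the 6 genes was called as different between RES and ADLIB animals. A gene was called where limma's adjusted p, by the Benjamini-Hochberg method over all genes, was under 0.001. By that rule 0 of the 6 were called, where the share called among all 13685 genes tested was 0%, and 0 of the 6 had an unadjusted p under 0.05, against 3.61% of all genes. The median difference of the 6 was -0.12, against 0.001 over all genes, whose median size without regard to sign was 0.117. Each of the 6 estimates was below 0, where 50.4% of all genes were above 0. Most pairs of the 6 genes were correlated between bulls, so these signs are not independent.

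For CD36, the uptake gene, the lowest, median and highest levels at the end of Period 1 were 156, 320 and 1013 CPM in ADLIB animals and 143, 309 and 898 CPM in RES animals. In both groups a few bulls stood well above the rest, and the ranges covered each other almost entirely. The RES minus ADLIB difference was -0.06 (standard error 0.36, limma adjusted p = 0.999). Its 95% confidence interval ran from a fold of 0.567 to 1.61.

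SREBF1, the regulator, ranged from 38.5 to 288 CPM around a median of 113 CPM in ADLIB animals, and from 22.0 to 172 CPM around 92.7 CPM in RES animals. The lowest value belonged to RES animal 6 and the highest to ADLIB animal 8, and the groups overlapped. RES minus ADLIB came to -0.30 (standard error 0.36, limma adjusted p = 0.999), with an interval from a fold of 0.483 to 1.36.

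For the synthesis genes, too, the levels of the groups lay on top of each other. ACACA was at a median of 27.1 CPM in ADLIB animals (8.41 to 46.2) and 24.5 CPM in RES animals (6.05 to 42.1), a difference of -0.15 (standard error 0.31). FASN was at 86.2 CPM in ADLIB animals (27.5 to 179) and 86.2 CPM in RES animals (22.0 to 129), a difference of -0.09 (standard error 0.33). The intervals ran from a fold of 0.575 to 1.41 for ACACA and from 0.584 to 1.505 for FASN. Animal 6 was the lowest RES animal for both genes, ADLIB animal 7 was the lowest ADLIB animal for both, and the groups overlapped throughout.

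SCD, the desaturase, had the lowest estimate of the 6 in RES animals. Its lowest, median and highest levels were 29.2, 45.3 and 113 CPM in ADLIB animals and 11.0, 37.8 and 74.6 CPM in RES animals. Of the RES animals, 4 lay below every ADLIB animal and 0 lay above the highest, while the rest were intermixed. The difference of -0.51 (standard error 0.29, unadjusted p = 0.097, limma adjusted p = 0.999) did not pass the test. Its interval ran from a fold of 0.46 to 1.07.

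DGAT1, the last enzyme of triacylglycerol assembly, was at 64.0, 91.3 and 331 CPM in ADLIB animals and 57.5, 100.1 and 256 CPM in RES animals, again as lowest, median and highest. A few animals of each group, 3 of them ADLIB, were far above their groups' medians, and the groups overlapped. RES minus ADLIB came to -0.09 (standard error 0.34, limma adjusted p = 0.999), with an interval from a fold of 0.576 to 1.52.

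Leaving out RES Period 1 animal 6 turned 4 of these differences from below to above 0. Without it CD36 stood at 0.08, ACACA at 0.04, FASN at 0.10 and DGAT1 at 0.003, while SREBF1 stood at -0.09 and SCD at -0.41. As the tissue was sequenced in bulk, fewer cells of a type and less RNA per cell cannot be told apart.

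**Figure D1:**
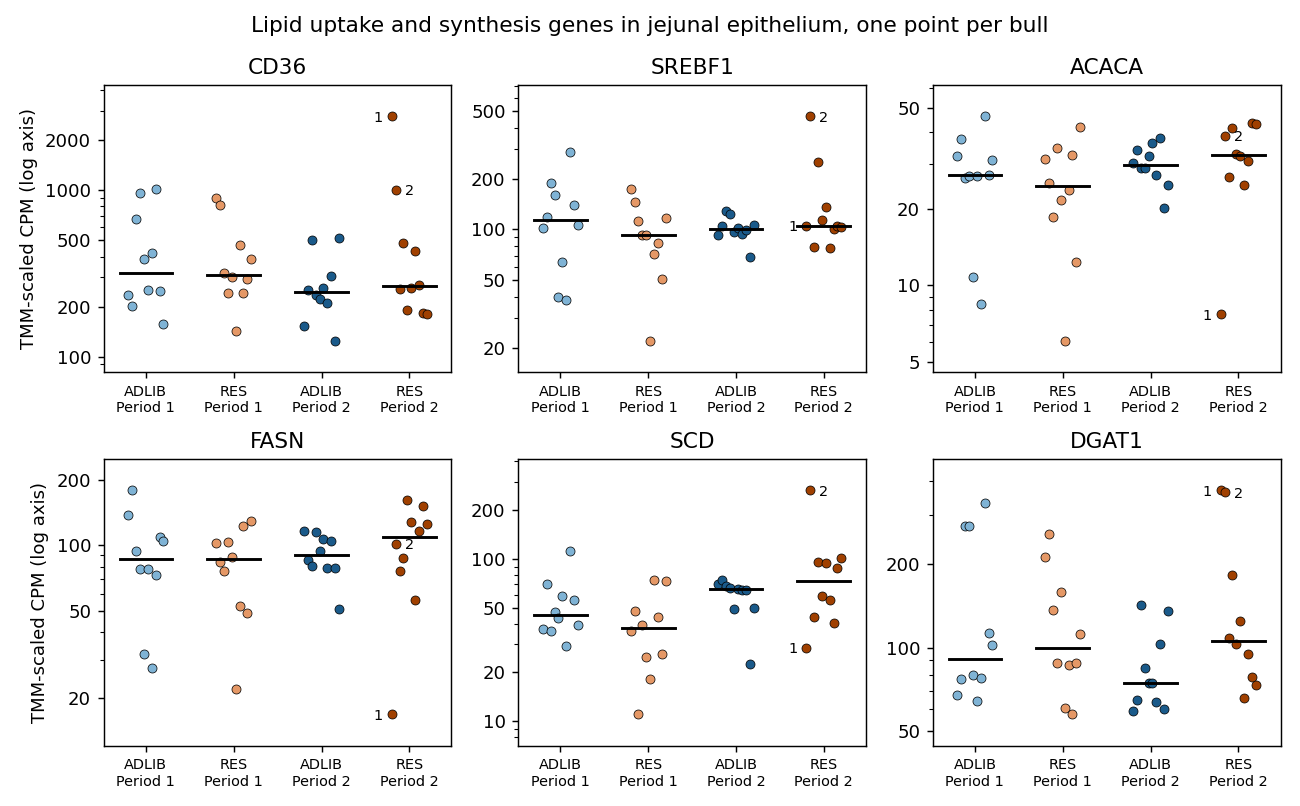
Level of each gene in each bull, in TMM-scaled CPM on a log axis, by group; horizontal lines are group medians and the digits mark RES Period 2 animals 1 and 2. The groups overlap for all 6 genes, and animals 1 and 2 of RES Period 2 hold the 2 highest values in that group for CD36 (2783 and 1005 CPM) and DGAT1 (370 and 363 CPM).

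After 55 days of re-alimentation, 0 of the 6 genes were called between RES and ADLIB animals, where 0% of 13605 genes were called. DGAT1 alone had an unadjusted p under 0.05, which 2.06% of all genes reached. CD36, SREBF1, SCD and DGAT1 had higher estimates in RES animals, as had 48.3% of all genes. The median difference of the 6 genes was 0.35, against -0.01 over all genes, whose median size without regard to sign was 0.118.

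DGAT1 was at a lowest, median and highest level of 59.1, 74.6 and 142 CPM in ADLIB animals and 65.9, 106 and 370 CPM in RES animals. Among RES animals, 8 of 10 lay above the ADLIB median, and 3 of them lay above every ADLIB animal. The difference was 0.64 (standard error 0.30, unadjusted p = 0.0417, limma adjusted p = 0.99), with an interval from a fold of 1.02 to 2.40. The highest pair were RES animals 1 and 2. The difference was 0.47 without animal 1 (unadjusted p = 0.0854 in limma) and 0.27 without both (unadjusted p = 0.204 in limma). With the first number of the library code in the sample titles as a covariate, it was 0.56 (unadjusted p = 0.0966 in limma).

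CD36 was at 125, 245 and 515 CPM in ADLIB animals and 181, 264 and 2783 CPM in RES animals. The highest value was that of RES animal 1, read from 9431 reads, and the next was that of animal 2 at 1005 CPM, with the other RES animals inside or near the ADLIB range. The difference of 0.59 (standard error 0.42, unadjusted p = 0.172, limma adjusted p = 0.99) did not pass the test. It was 0.27 without animal 1 and 0.06 without both.

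SREBF1 was at 68.7, 101 and 129 CPM in ADLIB animals and 77.4, 105 and 466 CPM in RES animals. The ADLIB animals lay close together, whereas RES animal 2 was at 466 CPM and the next RES animal at 249 CPM. The difference was 0.36 (standard error 0.25, unadjusted p = 0.163, limma adjusted p = 0.99), and 0.16 without animals 1 and 2.

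SCD was at 22.4, 64.9 and 74.6 CPM in ADLIB animals and 28.3, 73.7 and 266 CPM in RES animals. Of the RES animals, 5 of 10 lay above every ADLIB animal, and the other 5 lay below the ADLIB median. The difference was 0.33 (standard error 0.30, unadjusted p = 0.281, limma adjusted p = 0.99). Without animal 2, the highest, it was 0.13.

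The estimates for the synthesis genes ACACA and FASN were nearest to 0. ACACA had a median of 29.6 CPM in ADLIB animals (20.2 to 38.1) and 32.7 CPM in RES animals (7.67 to 43.5). FASN had a median of 89.8 CPM in ADLIB animals (51.1 to 116) and 109 CPM in RES animals (16.8 to 162). For both genes RES animal 1 was far below all other animals, 4 RES animals were above every ADLIB animal, and the groups overlapped. The interval of the difference ran from a fold of 0.725 to 1.38 for ACACA and from 0.652 to 1.53 for FASN. Without animal 1 the differences were 0.20 (unadjusted p = 0.125 in limma) and 0.26 (unadjusted p = 0.171 in limma).

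RES animal 1 of Period 2 thus held the highest CD36 and DGAT1 values of all 40 bulls, the lowest FASN value and the second lowest ACACA value. Its TMM factor was the lowest, 0.587, and without TMM scaling it was still highest for CD36 and lowest for FASN, but rank 7 from the top for DGAT1 and lowest for ACACA. Its CD36 to FASN ratio of CPM was 165, where the other 39 bulls lay between 1.13 and 15.2. The part of sample composition or RNA quality in this was not tested.

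Applied to the reads recovered from the CPM, the likelihood ratio test of edgeR, the test of the study's methods, gave larger estimates at the end of Period 2. They were 1.12 for CD36 (unadjusted p = 0.0151), 0.86 for DGAT1 (unadjusted p = 0.00707) and 0.60 for SREBF1 (unadjusted p = 0.0343). These 3 of 6 genes compare with 4.32% of all genes at an unadjusted p under 0.05 by that test, and 0 of the 6 were called after adjustment (smallest adjusted p = 0.91, edgeR). The 3 genes were correlated with each other between bulls and so are not independent. That test was not repeated with animals left out. The quasi-likelihood test of edgeR and DESeq2, on the same reads, had the same 3 genes at an unadjusted p under 0.05. The share of all genes is not given for them. With limma-voom and sample quality weights 0 of the 6 had such a p, and the CD36 estimate was -0.02. The study, with the likelihood ratio test at the same threshold, reported called genes in each of its comparisons, GSTA1 alone at the end of Period 2. On the recovered reads that test called 0 of all genes at the end of each period. Over time it called 3 in RES animals, fewer than the study listed, and 0 in ADLIB animals. The study's calls were thus not recovered at the end of either period or in ADLIB animals over time. Whether the 3 are among the study's genes could not be checked, as identifiers had no names. The cause was not tested, and the counts of 0 called among the 6 genes stand beside this shortfall.

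**Figure D2:**
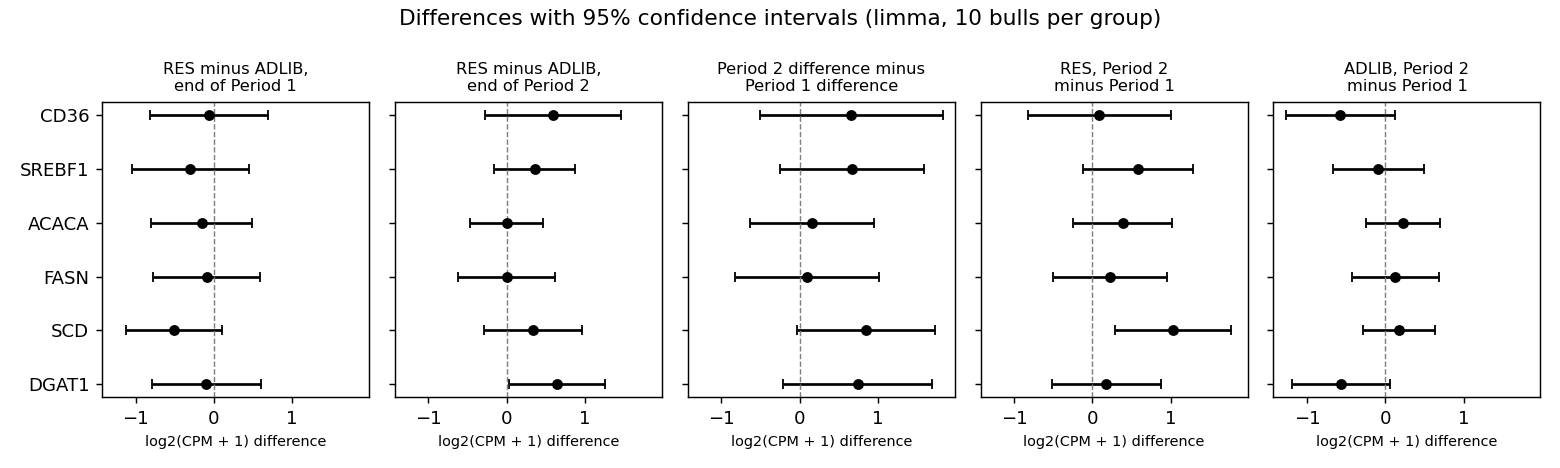
Difference of each gene in the 5 comparisons, on the log2(CPM + 1) scale, with 95% confidence intervals from limma and 10 bulls per group; the dashed line is 0. The interval lies wholly above 0 for DGAT1 between RES and ADLIB animals at the end of Period 2 (0.03 to 1.26) and for SCD in RES animals over time (0.29 to 1.78), and neither was called after adjustment.

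Within RES animals, re-alimented against restricted, SCD had the widest separation of the 6 genes, and 0 of the 6 were called, beside 0% of 13509 genes. Levels were rescaled over the 40 libraries for comparisons between periods. SCD was then at 11.1, 38.1 and 75.2 CPM at the end of Period 1 and 29.0, 73.6 and 268 CPM at the end of Period 2, as lowest, median and highest. In Period 2, 9 of 10 animals lay above the Period 1 median and 5 lay above every Period 1 animal, though the groups overlapped.

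The Period 2 minus Period 1 difference of SCD in RES animals was 1.03 (standard error 0.36, unadjusted p = 0.00878, limma adjusted p = 0.755). Its interval ran from a fold of 1.22 to 3.42. SCD was the 1 gene of 6 with an unadjusted p under 0.05, which 5.66% of all genes reached. The difference was 1.17 without RES Period 2 animal 1, 0.82 without animal 2, 0.95 without both and 0.93 without RES Period 1 animal 6. Adjusted p-values stayed above the threshold in every alternative, the smallest being 0.236 with limma-voom.

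The other genes of RES animals moved less between periods. The differences were 0.58 for SREBF1 (standard error 0.34, unadjusted p = 0.101 in limma), 0.39 for ACACA (standard error 0.31), 0.22 for FASN (standard error 0.35), 0.18 for DGAT1 (standard error 0.34) and 0.09 for CD36 (standard error 0.44). All 6 estimates were above 0, as were 50.5% of all genes, and most pairs of the 6 were correlated between bulls, so the signs are not independent. Their median was 0.30, against 0.003 over all genes, whose median size without regard to sign was 0.15. The estimates of CD36 and DGAT1 were -0.45 and -0.20 without RES Period 2 animals 1 and 2. Without animal 1 alone, CD36 was at -0.23, ACACA at 0.58 (unadjusted p = 0.0326, limma adjusted p = 0.652), FASN at 0.48 and DGAT1 at 0.005. Without RES Period 1 animal 6, SREBF1 was at 0.37, ACACA at 0.19, FASN at 0.03, DGAT1 at 0.08 and CD36 at -0.06.

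Within ADLIB animals, fed freely throughout, 0 of the 6 genes were called and 0 had an unadjusted p under 0.05, against 0% and 5.06% of 13509 genes. The lowest estimates were those of CD36, -0.57 (standard error 0.34, unadjusted p = 0.104 in limma), and DGAT1, -0.57 (standard error 0.30, unadjusted p = 0.0745 in limma). The CD36 median was 322 CPM at the end of Period 1 and 242 CPM at the end of Period 2, and the DGAT1 median was 91.9 and 73.9 CPM. For DGAT1, 4 ADLIB animals of Period 2 lay below every Period 1 animal, and for CD36 2 did. SCD was at medians of 45.6 and 63.8 CPM, and 9 of 10 Period 2 animals lay above the Period 1 median. Its difference was 0.18 (standard error 0.22, limma adjusted p = 0.881). The remaining differences lay between -0.09 (SREBF1) and 0.23 (ACACA). By the likelihood ratio test CD36 was at -0.73 (unadjusted p = 0.0338) and DGAT1 at -0.78 (unadjusted p = 0.0135), 2 of 6 genes against 5.66% of all genes. The 2 genes were correlated between bulls and so are not independent. The quasi-likelihood test of edgeR and DESeq2, on the same reads, had the same 2 genes at an unadjusted p under 0.05, and limma-voom had 0. After adjustment 0 of the 6 were called (smallest adjusted p = 0.758, edgeR likelihood ratio test). With the library code number as a covariate, the unadjusted limma p was 0.0445 for CD36 and 0.0443 for DGAT1 (limma adjusted p = 0.706 for both).

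The interaction asked whether the RES minus ADLIB difference itself differed between the end of re-alimentation and the end of restriction. None of the 6 genes passed, beside 0% of 13509 genes, and 0 of 6 had an unadjusted p under 0.05, against 6.44%. The estimates were 0.85 for SCD (standard error 0.44, unadjusted p = 0.0585, limma adjusted p = 0.721), 0.74 for DGAT1 (standard error 0.47), 0.67 for SREBF1 (standard error 0.46) and 0.66 for CD36 (standard error 0.58). ACACA and FASN were at 0.16 (standard error 0.39) and 0.10 (standard error 0.46). The likelihood ratio test gave unadjusted p-values of 0.0255 for SCD, 0.0252 for DGAT1, 0.0305 for SREBF1 and 0.0346 for CD36. These 4 of 6 stand beside 9.2% of all genes. CD36, SREBF1 and DGAT1 were correlated with each other between bulls, so the 4 genes are not independent. The quasi-likelihood test of edgeR and DESeq2, on the same reads, had the same 4 genes at an unadjusted p under 0.05. The share of all genes is not given for them. By limma-voom with sample quality weights 0 of the 6 had an unadjusted p under 0.05. The likelihood ratio test was not repeated with animals left out. After adjustment 0 of the 6 were called (smallest adjusted p = 0.503, edgeR), beside 0.0074% of all genes. Without RES Period 2 animals 1 and 2 the limma estimate was 0.77 for SCD, 0.36 for DGAT1, 0.46 for SREBF1 and 0.12 for CD36. Without animal 1 alone it was 0.99 for SCD (unadjusted p = 0.0248, limma adjusted p = 0.929), 0.34 for CD36, 0.36 for ACACA and 0.35 for FASN. Without RES Period 1 animal 6, ACACA and FASN were at -0.03 and -0.09.

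With both groups of a period pooled, bulls of the same group differed more in these genes than in most genes of like level. The standard deviation between bulls within groups, on the log2(CPM + 1) scale, was 0.71 (SCD) to 0.88 (CD36) in Period 1 and 0.53 (ACACA) to 1.01 (CD36) in Period 2. The median of genes of like level was 0.38 to 0.44 in Period 1 and 0.35 to 0.42 in Period 2. Among such genes the 6 stood between the 90.0 and 94.1 percentiles in Period 1 and between the 78.7 and 91.0 percentiles in Period 2. This was not computed for each group, nor without RES Period 2 animal 1. For each of the 6 genes the coefficient of variation was lowest in ADLIB animals of Period 2, from 16.3% (SREBF1) to 47.6% (CD36).

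SREBF1 showed how unequal the spread was between groups. Its coefficient of variation was 60.6% in ADLIB animals of Period 1, 16.3% in ADLIB animals of Period 2, 45.5% in RES animals of Period 1 and 78.3% in RES animals of Period 2. The last value rested on animal 2, the highest, and was 43.7% without it, where ADLIB animals of Period 1 were at 49.0% without their highest. These differences in spread were not tested.

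**Figure D3:**
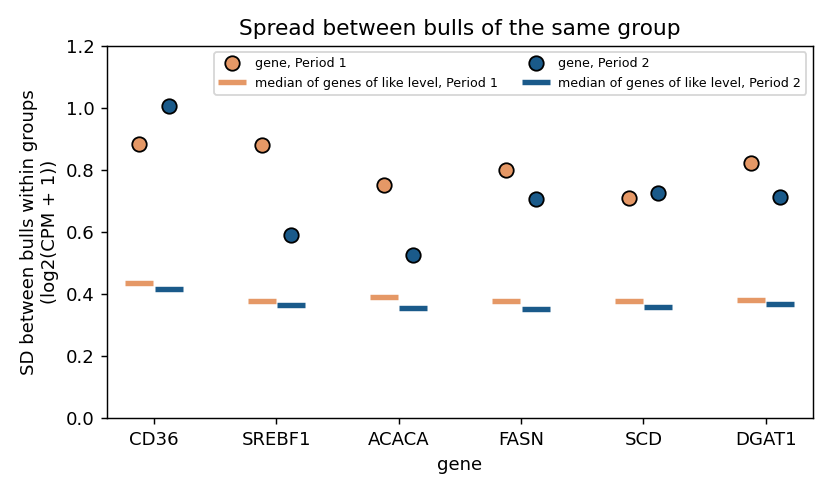
Standard deviation between bulls within groups on the log2(CPM + 1) scale (points), pooled over both groups of a period, by gene, beside the median of genes of like level (bars). Every point lies above its bar, from 0.53 for ACACA in Period 2 to 1.01 for CD36 in Period 2.

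Most pairs of these genes were correlated from bull to bull within groups, as were many pairs with other genes. Correlations were computed over the 40 bulls after each group's mean was subtracted, with permutation of animals within groups and adjustment over the 15 pairs. By Pearson's r and by Spearman's rho, 10 of the 15 pairs had an adjusted permutation p under 0.05, 9 of them positive and 1 negative. The smallest r among them, in size, was 0.401, and between 29.3% (SCD) and 55.4% (FASN) of all genes had an r at least that large with a given gene of the 6. The count is therefore not particular to these genes.

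CD36 and DGAT1, the start and the end of the route from fatty acid uptake to triacylglycerol, varied together. Their r was 0.841 and rho 0.699 (permutation p = 1e-05 and 2e-05, adjusted 5e-05 and 7.5e-05). It lay between 0.823 and 0.926 within the 4 groups and was 0.805 without the 2 animals farthest from the median of CD36. DGAT1 ranked 330 among 13508 genes in likeness to CD36, so the pairing was shared with many other genes.

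ACACA and FASN, successive enzymes of fatty acid synthesis, had an r of 0.88 and a rho of 0.752 (permutation p = 1e-05 for both, the smallest that 100000 permutations can give, adjusted 5e-05 for both). Within groups r ran from 0.561 in ADLIB Period 2 to 0.942 in RES Period 1. It was 0.785 without the 2 animals farthest from the median, RES Period 2 animal 1 and RES Period 1 animal 6. FASN ranked 282 among genes like ACACA.

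SREBF1 was correlated with all 5 of the other genes. Its r was 0.72 with DGAT1 (rho 0.748, adjusted permutation p = 5e-05 for both), 0.672 with ACACA (rho 0.541, adjusted permutation p = 0.00018 and 0.00243) and 0.542 with SCD (rho 0.446, adjusted permutation p = 0.00295 and 0.0163). With FASN it was 0.50 (rho 0.361, adjusted permutation p = 0.0107 and 0.0493), and with CD36 0.487 (rho 0.486, adjusted permutation p = 0.00975 and 0.00767). Without the 2 animals farthest from the median of the first gene of each pair, these r became 0.672, 0.611, 0.366, 0.421 and 0.573. For FASN r was as low as 0.068 within ADLIB Period 2. In likeness to SREBF1, DGAT1 ranked 618, ACACA 904, SCD 1868, CD36 2302 and FASN 2208 among 13508 genes.

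SCD followed ACACA, with an r of 0.646 and a rho of 0.694 (adjusted permutation p = 0.00018 and 5e-05), 0.637 to 0.756 within groups and 0.571 without the 2 farthest animals. Its r with FASN was 0.417 (rho 0.364, adjusted permutation p = 0.0308 and 0.0493). It was 0.229 without the 2 farthest animals, and lay between 0.313 and 0.518 within the 4 groups. Those animals were again RES Period 2 animal 1 and RES Period 1 animal 6.

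CD36 and FASN were negatively correlated, with an r of -0.401 and a rho of -0.419 (permutation p = 0.0281 and 0.0121, adjusted 0.0421 and 0.0227). Within groups r was -0.849 in RES Period 2, -0.48 in ADLIB Period 2, -0.367 in ADLIB Period 1 and 0.432 in RES Period 1. It was -0.155 without the 2 animals farthest from the median of CD36, and -0.35 without RES Period 2 animal 1 and RES Period 1 animal 6. The other 5 pairs did not pass, with r from -0.124 (CD36 with ACACA, and FASN with DGAT1) to 0.166 (SCD with DGAT1).

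**Figure D4:**
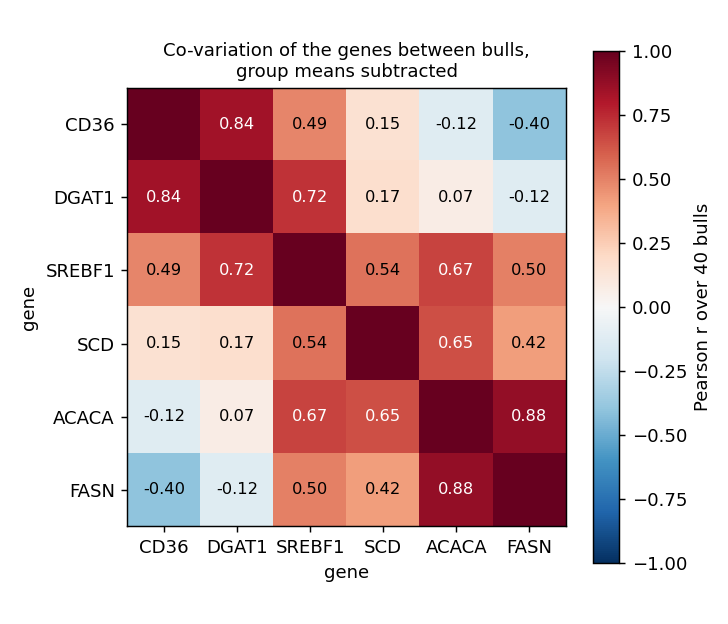
Pearson r between the genes over 40 bulls with group means subtracted, on a colour scale from -1 to 1. The highest r are those of CD36 with DGAT1 (0.84) and ACACA with FASN (0.88), and SREBF1 has a positive r with each of the others (0.49 to 0.72).

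**Figure D5:**
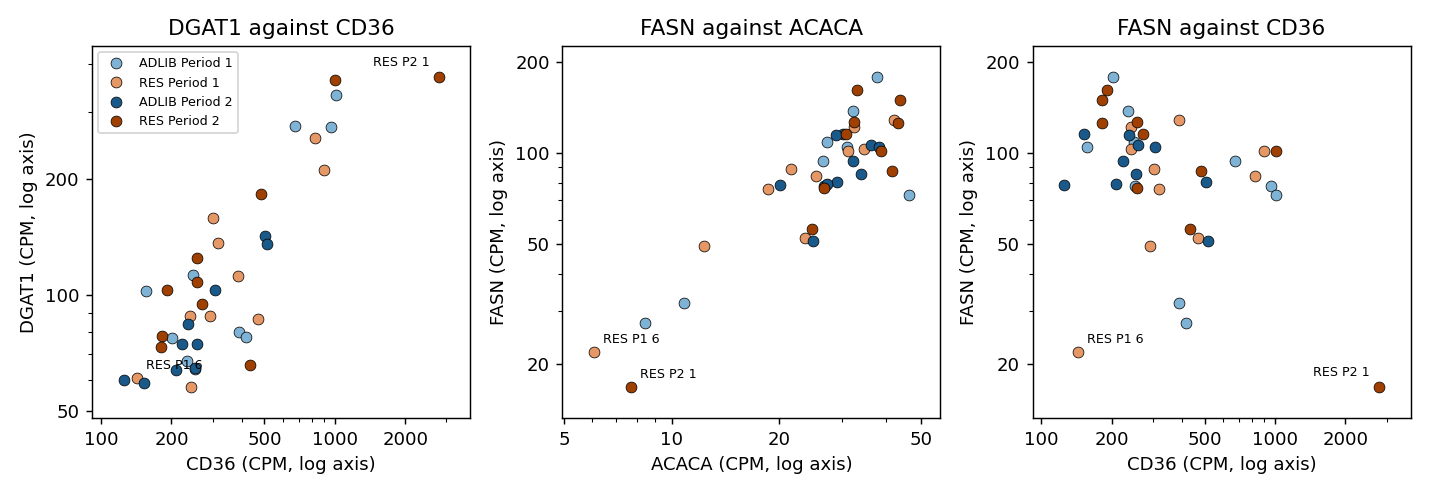
Levels of 3 pairs of genes in each bull, in CPM scaled within each period, on log axes, coloured by group, with RES Period 2 animal 1 and RES Period 1 animal 6 marked. DGAT1 rises with CD36 and FASN with ACACA in the bulls of all groups, whereas animal 1 combines the highest CD36 (2783 CPM) with the lowest FASN (16.8 CPM).

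Properties of the whole library moved with some of these genes. Over the 40 bulls, again with group means subtracted, r with the log2 TMM scaling factor of the library was 0.751 for FASN, 0.608 for ACACA, 0.311 for SCD, 0.03 for SREBF1, -0.505 for DGAT1 and -0.604 for CD36. The factor also enters these levels. With levels not scaled by TMM, r was 0.839 for FASN, 0.753 for ACACA, 0.528 for SCD, 0.291 for SREBF1, -0.266 for DGAT1 and -0.436 for CD36. With the library's correlation to the median profile of its period, r of the scaled levels was 0.773 for FASN, 0.717 for ACACA, 0.371 for SCD, 0.199 for SREBF1, -0.322 for DGAT1 and -0.47 for CD36. All are given as descriptions, and none was computed without RES Period 2 animal 1 and RES Period 1 animal 6. Those libraries had TMM factors of 0.587 and 0.780 and the lowest correlations to the median profile, 0.815 and 0.883. Without TMM scaling, r was 0.791 between CD36 and DGAT1 and 0.921 between ACACA and FASN. The part of sample composition in these correlations was not tested.

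Few genes followed SCD closely. The other 5 genes each had between 243 and 782 genes at an r over 0.8, and SCD had 16. The nearest, ENSBTAG00000047957, had an r of 0.971 with SCD, and the next had 0.873. Its level was 0.268 to 0.472 times that of SCD in CPM over the 40 bulls, with r from 0.932 to 0.989 within groups. It followed SCD in RES animals over time as well, with a difference of 0.97 (standard error 0.36, limma adjusted p = 0.831). Its name is not given by the files, and whether both genes share reads was not tested, so the level of SCD is uncertain to that extent.

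For the other genes the nearest patterns were ENSBTAG00000023955 for CD36 (r 0.96), ENSBTAG00000020616 for SREBF1 (r 0.932), ENSBTAG00000015325 for ACACA (r 0.97), ENSBTAG00000020619 for FASN (r 0.943) and ENSBTAG00000026501 for DGAT1 (r 0.962).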

How the data were processed

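Per the labels and the study's methods, single-end reads were aligned to the bovine genome UMD3.1, counted on protein-coding genes with HTSeq and scaled with edgeR. The authors deposited 1 normalised signal value per gene and library, CPM after TMM scaling within the 20 libraries of each period, for 13685 genes in Period 1 and 13605 in Period 2. Dividing by the value of 1 read gave whole reads for 100.0% of 545800 values (tolerance 0.01 reads), with 4431390 to 8295900 reads per library.

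As the files hold CPM, the main test was limma (3.58.1, in R 4.3.3), fitted over all genes to log2(CPM + 1) with its trend option. Comparisons between periods and the interaction used CPM recomputed with TMM over the 40 libraries for 13509 shared genes. The edgeR (4.0.16) likelihood ratio and quasi-likelihood tests, DESeq2 (1.42.0) and limma-voom served as alternatives on these reads, besides other pseudocounts, filters, scalings, covariates and omitted animals. Some of the fits were also run on simulated data, but no outcome of those runs is given here. How often a true difference would be called at the threshold is therefore not stated. Genes of like level, used for the comparison of spreads, were those nearest in mean log2(CPM + 1).

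The 6 genes and the lists were chosen with earlier results of these data known. All 6 are named in every comparison, and for each the 3 genes with the highest r were found, of which the first is given. Gene names come from the choice of identifiers: 0 of 13781 identifiers matched the reference table (RefSeq, ARS-UCD2.0), so the pathway lists and cell type markers, written as symbols, could not be applied and no sequence or position is given.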

Additional observations from a re-analysis of the deposited data

Results flagged for a closer look

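In 5 of the 24 combinations of gene and group, the lowest animal stood apart by Dixon's test, in which the gap to the nearest animal is divided by the range of the group on the log2(CPM + 1) scale and set against the critical value for 10 animals. Chance alone flags about 1 in 20 groups. The 24 combinations are not independent, as the same animals recur and most pairs of the genes were correlated between bulls, so the count of 5 cannot be set against that rate. RES Period 2 animal 1 was flagged for ACACA (ratio 0.665), at 7.67 CPM with the next animal at 24.8 CPM, and for FASN (ratio 0.527), at 16.8 CPM with the next at 56.2 CPM. ADLIB Period 2 animal 9 was flagged for SCD (ratio 0.655), at 22.4 CPM with the next at 49.5 CPM, and for SREBF1 (ratio 0.472), at 68.7 CPM with the next at 92.5 CPM. ADLIB Period 2 animal 10 was flagged for FASN (ratio 0.52), at 51.1 CPM with the next at 78.4 CPM. The TMM factor of its library was 0.722, where those of all libraries ran from 0.587 to 1.15, and its 10 highest genes held 30.8% of its reads. The CD36 value of RES Period 2 animal 1, 2783 CPM, was not flagged.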

How the results depend on the processing

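In each of 176 fits over the 5 comparisons 0 of the 6 genes were called, and false discovery rates under 0.05 and 0.1 called 0 as well. The following estimates changed sign. With limma-voom, in Period 1 CD36 was 0.39, ACACA 0.0328 and DGAT1 0.13, in Period 2 CD36 was -0.0176, in RES animals over time CD36 was -0.65 and DGAT1 -0.18, and the CD36 interaction was -0.40. In Period 2, ACACA and FASN, near 0 in limma, were 0.10 and 0.16 by the likelihood ratio test, 0.10 and 0.16 by the quasi-likelihood test, 0.0957 and 0.16 by DESeq2, 0.13 and 0.28 by limma-voom, 0.0661 and 0.005 with the first number of the library code as a covariate, and 0.18 and 0.26 without RES animals 1 and 2, an alternative chosen after seeing the data. Without those animals CD36 and DGAT1 in RES animals over time were -0.45 and -0.20, and DESeq2, which replaced the CD36 count of animal 1, gave -0.22 for CD36. FASN in ADLIB animals over time was -0.0316 by both edgeR tests, -0.0239 by DESeq2 and -0.0898 by limma-voom. The cause of these reversals was not tested.

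Leaving out 1 animal at a time, Period 1 differences ranged from -0.21 to 0.10 (CD36), -0.31 to 0.038 (ACACA), -0.26 to 0.0985 (FASN) and -0.23 to 0.0684 (DGAT1). Period 2 differences ranged from -0.06 to 0.20 (ACACA) and -0.10 to 0.26 (FASN), those over time from -0.23 to 0.24 (CD36, RES), -0.25 to 0.0732 (SREBF1, ADLIB) and -0.0415 to 0.25 (FASN, ADLIB), and interactions from -0.0321 to 0.36 (ACACA) and -0.0943 to 0.35 (FASN). Without RES Period 1 animal 6, CD36 was 0.08 and DGAT1 0.003 in Period 1, and CD36 was -0.06 in RES animals over time.

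The labels share replicate numbers between groups. The groups held different bulls, and the labels do not say that a number marks a shared day. The mean r of deviations between animals of the same number was -0.104 in Period 1, -0.087 in Period 2, 0.158 in RES and -0.016 in ADLIB animals over time, against 0.017, 0.024, -0.007 and 0.006 between different numbers, and 4, 3, 6 and 5 of 10 pairs were over 0.1. With the replicate number as a block, 0 of the 6 genes were called. Unadjusted limma p-values were 0.0673 for DGAT1 in Period 2 and 0.00423 for SCD in RES animals over time. They were 0.0178 for DGAT1 in ADLIB animals over time and 0.0482 for the SCD interaction. The limma adjusted p-values were 0.999, 0.383, 0.913 and 0.764, in that order. The shallowest value, that of ACACA in RES Period 1 animal 6, rested on 22 reads, and single values this low carry a wide counting error.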
